A study of Mus musculus with 6 samples.

Results

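The nuclear-encoded subunits of the respiratory chain were examined in atrial cardiomyocyte nuclei of mice homozygous for the Prrx1(R1A) allele and of control mice. They were taken by symbol: every gene named Ndufa, Ndufb, Ndufc, Ndufs or Ndufv with a number, Sdha to Sdhd, every Uqcr gene, every Cox gene numbered 4 to 8 and every Atp5 gene. Names of pseudogenes (2 in all) were left out. This gave 84 of the 26332 genes with values, namely 37 of complex I, 4 of complex II, 8 of complex III, 18 of complex IV and 17 of complex V. The test took in the 74 of them with a normalized count of 10 or more in 3 or more libraries. The complex was taken from the symbol, which places Ndufa4 in complex I although its protein is now counted as a complex IV subunit. Likewise Atp5sl and Atp5s stand under complex V by name, but the GENCODE annotation calls the first Dmac2, after a factor needed for assembly of complex I in human cells.

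The study asked, per its title, how a noncoding region that regulates the homeobox gene Prrx1 relates to atrial arrhythmia. There were 3 Prrx1(R1A)-/- and 3 control libraries, each from the nuclei of both atria of 1 mouse aged 8 to 12 weeks. Nuclei were stained for PCM1, a protein found at the surface of cardiomyocyte nuclei, and sorted, so the RNA is nuclear and the measurement is not one of cytoplasmic mRNA. The labels call the reference genotype control and give neither its strain nor the sex of the mice, and they describe the R1A allele no further. The column headers of the deposited counts mark the control libraries wt and the others hom.

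The respiratory chain passes electrons from NADH (through complex I) and succinate (through complex II) by way of ubiquinone, complex III and cytochrome c to complex IV, which reduces oxygen. Complexes I, III and IV pump protons across the inner mitochondrial membrane, and complex V, the ATP synthase, uses that gradient to make ATP. Atrial cardiomyocytes depend on it for contraction, and several complex IV subunits exist in a widely expressed form and in a form restricted to muscle, lung or testis.

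The libraries held 11878824, 11963532 and 14658584 reads for Prrx1(R1A)-/- replicates 1, 2 and 3, against 12080965, 10580961 and 11952605 reads for control replicates 1, 2 and 3. Control replicate 1 stood apart, with correlations of 0.890 to 0.908 with the other libraries and ribosomal RNA at 46.5% of its reads, against 26.7% to 39.8% in the Prrx1(R1A)-/- libraries and 12.0% and 17.9% in the other controls. Results that rest on it are given below with and without it. Prrx1 itself had 201, 194 and 183 normalized counts in Prrx1(R1A)-/- libraries, against 415, 335 and 282 in control libraries. These groups did not overlap (adjusted p = 0.270 by limma). The 10 cardiomyocyte markers were all detected and summed to 805291 to 1502939 normalized counts in Prrx1(R1A)-/- libraries and 301805 to 580618 in controls. The 8 fibroblast markers summed to 16537 to 17380 in Prrx1(R1A)-/- libraries and 23884 to 36344 in controls, and the 8 immune markers to 5379 to 8519 in Prrx1(R1A)-/- libraries and 5539 to 16292 in controls, with no marker of these lists at 0 in any library. The groups did not overlap in the cardiomyocyte and fibroblast sums and overlapped in the immune sum. In bulk RNA fewer nuclei of a type and less RNA per nucleus cannot be told apart. The part of these shifts in the Prrx1 values and in the results below was not tested.

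No subunit gene passed the test over all genes. By limma on the log2 of normalized count plus 1, with Benjamini-Hochberg adjustment over 14584 genes, 2 genes were called higher in Prrx1(R1A)-/- nuclei (0.0137%) and 0 lower (0%), and 0 of the 74 tested subunits were called in either direction. At an unadjusted p under 0.05, 5 subunits had a positive and 5 a negative log2 fold change, which is 6.76% each way beside 6.67% and 5.25% of all genes. edgeR's quasi-likelihood test on the recovered reads called 0 subunits, and DESeq2 called 1 higher, Cox6a2, and 0 lower (1.09% and 0.583% of all genes). The values of the 3 Prrx1(R1A)-/- libraries lay all above those of the 3 controls for 7 subunits (9.46%, beside 8.89% of all genes) and all below for 5 (6.76%, beside 8.36%). These shares are near those of all genes. Of the 5 lower subunits, Atp5g2 reached the 10 normalized counts of the filter only in the 3 controls. It thus entered the test through the group where it was high.

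More subunits had negative than positive fold changes, and the size and sign of this shift turned on single control libraries. With all 6 libraries the log2 fold change (Prrx1(R1A)-/- over control) was above 0 for 28 and below 0 for 46 of 74 subunits. The median was −0.18, against −0.0036 over all genes tested. By complex the medians were −0.16 for I (34 tested), 0.03 for II (3 tested), −0.26 for III (6 tested), −0.35 for IV (15 tested) and −0.16 for V (16 tested). Without control replicate 1, the fold change was below 0 for 56 of 73 subunits and the median was −0.40. In that comparison of 3 against 2 libraries, 874 of 14329 genes were called higher (6.1%) and 438 lower (3.06%), among them 1 subunit higher (1.37%) and 7 lower (9.59%). Leaving out any other single library called 0 genes. Without control replicate 3 the median was 0.08, so the sign of the median also hung on that library. It was −0.05 once a trend with transcript length was removed and 0.04 with the ribosomal RNA Rn45s as a covariate. With libraries weighted by their quality, 2 subunits were called higher and 10 lower, beside 6.51% and 3.92% of all genes, and with the Rn45s covariate 2 higher and 0 lower, beside 2.32% and 0.672%. The weights, estimated from these data, were 0.246 for control replicate 1, 2.64 for control replicate 3 and 0.842 to 1.32 for the others. Weighting thus also reduced the part of control replicate 1 and is not independent of leaving it out.

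**Figure D1:**
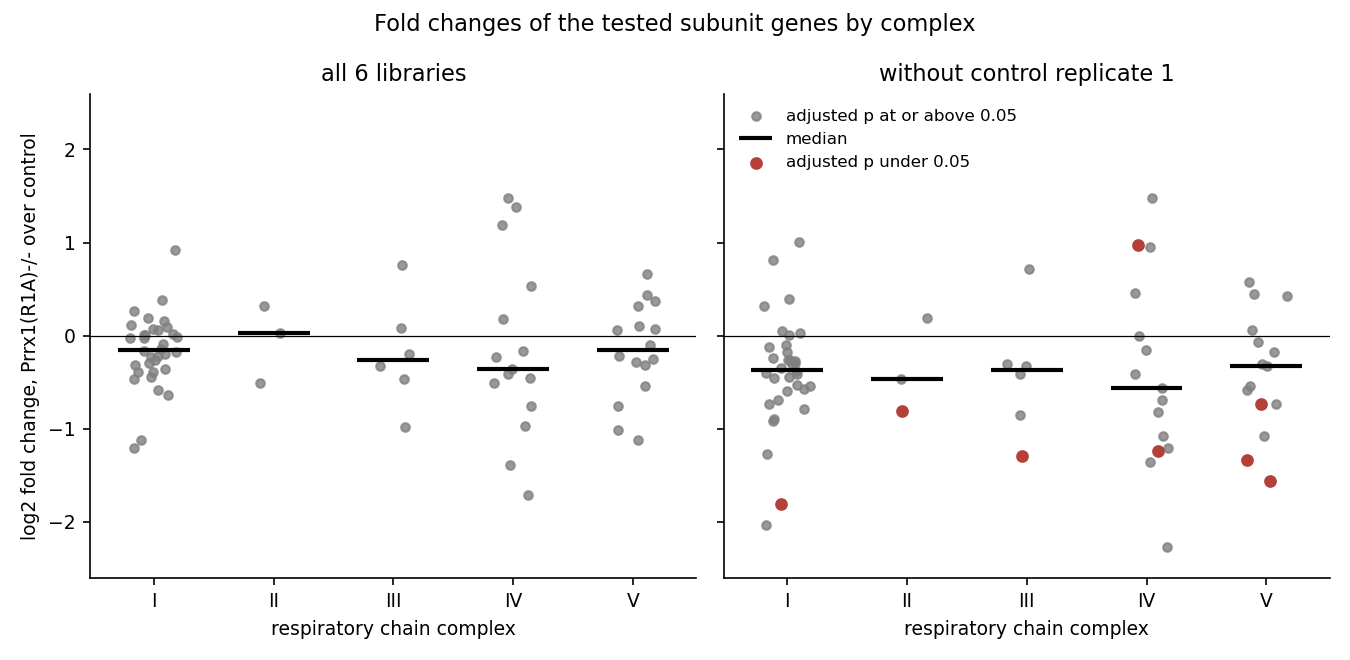
Log2 fold changes (Prrx1(R1A)-/- over control) of the tested subunit genes, grouped by complex, with all 6 libraries (left) and without control replicate 1 (right). Each point is 1 gene, bars are medians, and red points passed an adjusted p under 0.05 by limma: none on the left, and 8 on the right, of which 7 are below 0.

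The 3 smallest p-values among the subunits belonged to complex IV genes that have related isoforms, namely Cox6a2, Cox7a2l and Cox4i2. Cox6a2, the heart and skeletal muscle form of subunit VIa, had 940.2, 839.9 and 1706 normalized counts in the 3 Prrx1(R1A)-/- libraries, against 355, 479 and 664 in the controls. Every Prrx1(R1A)-/- value was above every control value. The means were 1162 ± 474 in Prrx1(R1A)-/- nuclei and 499 ± 155 in control nuclei (SD, n = 3 each), a log2 fold change of 1.19 ± 0.31 (SE; adjusted p = 0.203 by limma and 0.0235 by DESeq2). The gene lies on the minus strand of GRCm38 chr7:128205435-128206387 and shares 70 exonic bases with Itgad on the other strand, whose reads cannot be separated because the library method is not stated to keep strand. Per kilobase of transcript Cox6a2 ranked 1 of the 84 subunits in Prrx1(R1A)-/- nuclei (1709 normalized counts per kilobase) and 3 in controls (734). In both groups Atp5e and Atp5b were the other subunits among the top 3.

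Cox6a1, the widely expressed form of the same subunit, ran the other way. It had 276, 245 and 268 normalized counts in Prrx1(R1A)-/- libraries and 383, 387 and 315 in controls, with no overlap, and a log2 fold change of −0.46 ± 0.23 (adjusted p = 0.462 by limma). The log2 ratio of Cox6a2 to Cox6a1 was 1.77, 1.77 and 2.67 in Prrx1(R1A)-/- libraries, against −0.11, 0.31 and 1.07 in controls. Cox6a2 thus exceeded Cox6a1 in each of the 3 Prrx1(R1A)-/- libraries and in 2 of the 3 controls, the exception being control replicate 1. The mean ratios were 2.07 ± 0.52 in Prrx1(R1A)-/- and 0.42 ± 0.60 in control libraries (SD, n = 3 each), a difference of 1.65.

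Cox4i2, a form of subunit IV known from lung and induced by low oxygen, had 68.4, 96.0 and 67.7 normalized counts in Prrx1(R1A)-/- libraries, against 15.1, 40.4 and 37.8 in controls. The groups did not overlap, and control replicate 1 held the lowest value. By limma its log2 fold change came to 1.39 ± 0.47 (adjusted p = 0.310), and to 0.95 without control replicate 1. Cox4i1, the widely expressed form, had 441, 366 and 383 normalized counts in Prrx1(R1A)-/- libraries, against 377, 412 and 828 in controls, groups that overlapped, with a log2 fold change of −0.35 ± 0.30. The log2 ratio of Cox4i2 to Cox4i1 was −2.67, −1.92 and −2.48 in Prrx1(R1A)-/- libraries, against −4.56, −3.32 and −4.42 in controls. Cox4i1 therefore stayed the more abundant form in every library, by a smaller margin in the 3 Prrx1(R1A)-/- libraries, and the ratios differed by 1.74.

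For the 5 isoform pairs compared, the mean log2 ratio of the restricted to the widely expressed form was higher in Prrx1(R1A)-/- nuclei each time. Cox7a1 over Cox7a2, the muscle and the widely expressed form of subunit VIIa, differed by 1.02 with no overlap, but Cox7a2 had only 4.80 to 16.3 normalized counts per library and missed the filter. Cox7a1 alone had 101 ± 17.4 normalized counts in Prrx1(R1A)-/- nuclei against 98.4 ± 57.5 in controls (SD, n = 3 each). Cox8b over Cox8a, the muscle and the widely expressed form of subunit VIII, differed by 0.77, and Ndufa4l2 over Ndufa4 by 1.20, both with overlapping groups. The exact two-sided permutation test over the 20 labelings gave p = 0.1, the smallest it can give, for the first 3 pairs (adjusted p = 0.167 over 5 pairs), and p = 0.3 (adjusted p = 0.300) for the Cox8 and Ndufa4 pairs. With 3 against 3 libraries no pair could pass.

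**Figure D2:**
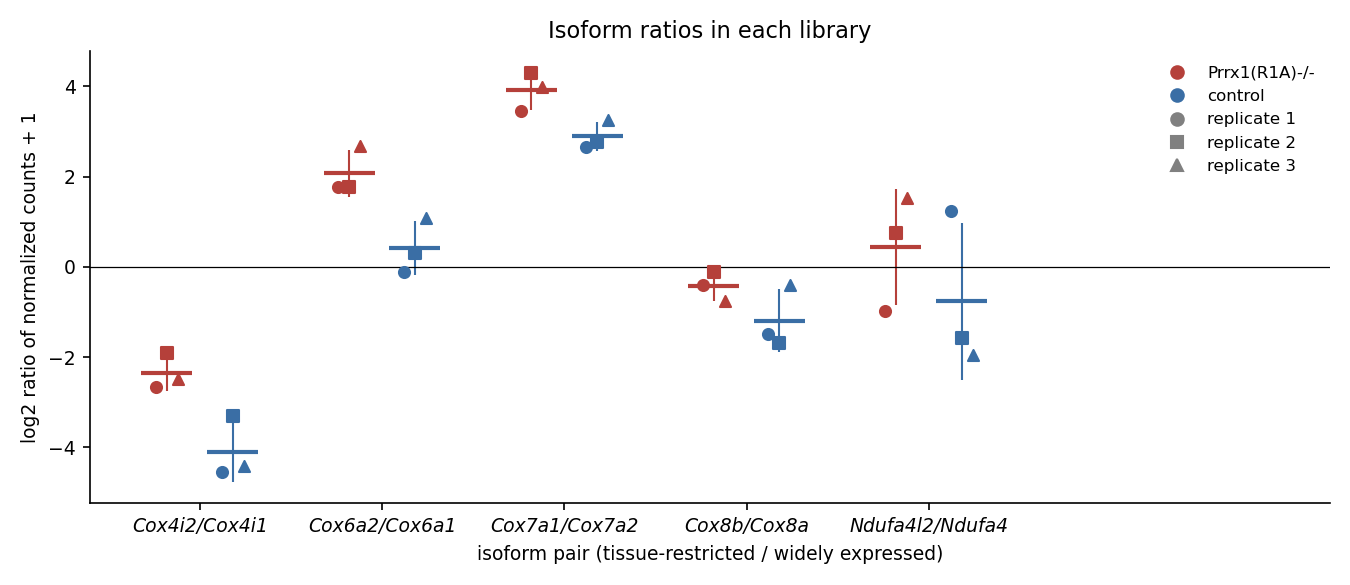
Log2 ratio of the tissue-restricted to the widely expressed isoform (normalized count plus 1) in each library, with group means and SD. For Cox4i2/Cox4i1, Cox6a2/Cox6a1 and Cox7a1/Cox7a2 the 3 Prrx1(R1A)-/- libraries lie above the 3 controls, by 1.74, 1.65 and 1.02 on average. The Cox8b/Cox8a and Ndufa4l2/Ndufa4 groups overlap.

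Cox7a2l, a relative of the VIIa subunits that joins complex III to complex IV in supercomplexes, had the smallest p among subunits with a negative fold change. It had 33.7, 30.0 and 54.6 normalized counts in Prrx1(R1A)-/- libraries, against 104, 93.6 and 105 in controls. The control values lay close together, control replicate 1 included, and all were above the Prrx1(R1A)-/- values. The log2 fold change of −1.38 ± 0.38 had an adjusted p of 0.222 by limma and 0.0508 by DESeq2, and was −1.36 without control replicate 1 (adjusted p = 0.0637). The gene (minus strand, GRCm38 chr17:83501918-83517330) has 1 near-identical copy, Gm6969, so the authors' counting may have split or dropped its reads.

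Among the remaining complex IV subunits, Cox6b2, a testis form of subunit VIb chosen for mention after its values were seen, had 52.1, 63.6 and 26.3 normalized counts in Prrx1(R1A)-/- libraries against 15.1, 22.5 and 10.4 in controls. Its groups did not overlap (log2 fold change 1.48 ± 0.55, adjusted p = 0.342 by limma). Cox6c, a structural subunit with 2 near-identical copies, had 105, 81.6 and 43.5 normalized counts in Prrx1(R1A)-/- libraries, against 101, 138 and 205 in controls. These groups overlapped, and the log2 fold change was −0.97 ± 0.41 (adjusted p = 0.386). Cox5a, a nuclear subunit that joins early in the assembly of the enzyme, had 74.9, 64.8 and 77.8 normalized counts in Prrx1(R1A)-/- libraries, against 61.7, 155 and 191 in controls. Control replicate 1 lay just below the Prrx1(R1A)-/- values and the other controls well above them, and without control replicate 1 the log2 fold change was −1.24 ± 0.32 (adjusted p = 0.0295), against −0.75 ± 0.42 (adjusted p = 0.507) with all libraries. Cox5b averaged 19.4 ± 8.72 normalized counts in Prrx1(R1A)-/- nuclei against 24.4 ± 14.6 in controls. The most negative fold change of any tested subunit, −1.71, belonged to Cox7c, which averaged 6.18 normalized counts in Prrx1(R1A)-/- nuclei, has 2 near-identical copies and was chosen for mention after its values were seen.

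**Figure D3:**
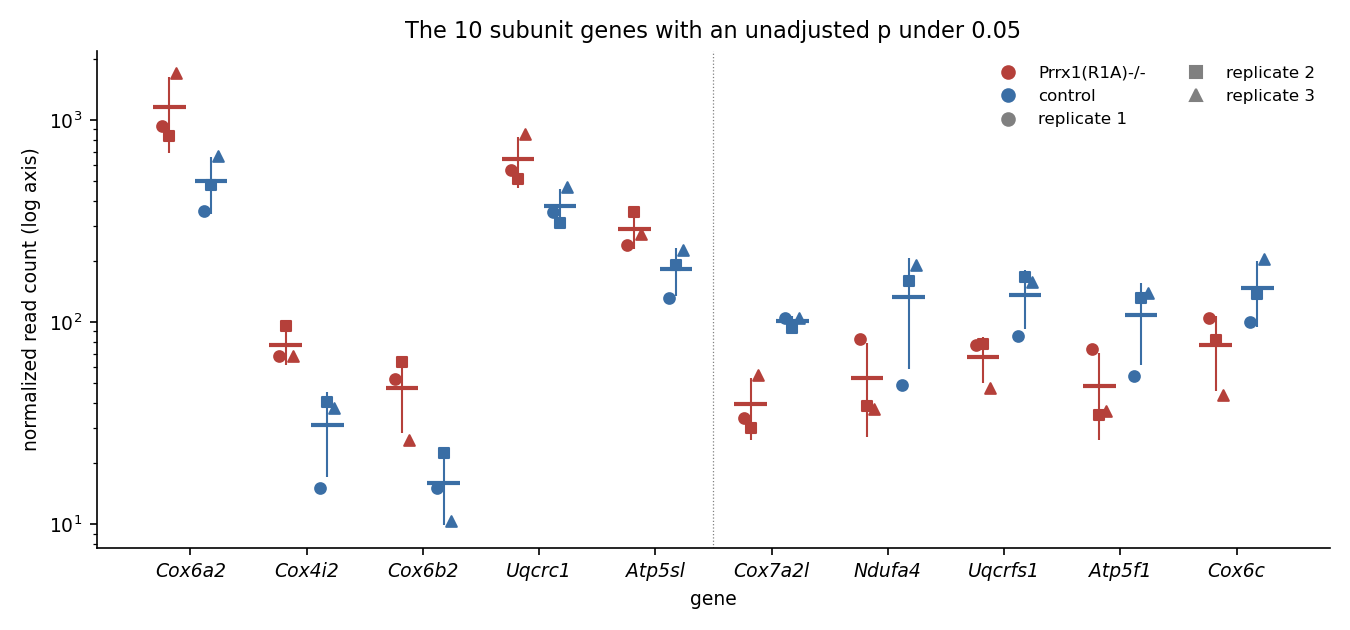
Normalized read counts (log axis) of the 10 subunit genes with an unadjusted p under 0.05 in each Prrx1(R1A)-/- (red) and control (blue) library, with group means (horizontal bars) and SD (vertical lines). The 5 genes left of the dotted line have higher and the 5 on its right lower means in Prrx1(R1A)-/- nuclei, and for Ndufa4, Atp5f1 and Cox6c control replicate 1 lies within the Prrx1(R1A)-/- range.

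Complex III held 1 subunit of each direction at an unadjusted p under 0.05 by limma. Uqcrc1, a core protein of the complex, had 566, 512 and 857 normalized counts in Prrx1(R1A)-/- libraries, against 349.8, 310.1 and 469 in controls. Each Prrx1(R1A)-/- value exceeded each control value, with a log2 fold change of 0.76 ± 0.27 (adjusted p = 0.315 by limma). Uqcrfs1, the Rieske iron-sulfur protein that takes electrons from ubiquinol, had 77.1, 78.0 and 47.5 normalized counts in Prrx1(R1A)-/- libraries, against 85.6, 168 and 158 in controls. Here the groups did not overlap either, although control replicate 1 lay close to the Prrx1(R1A)-/- libraries. Its log2 fold change was −0.99 ± 0.38 (adjusted p = 0.356), and −1.29 ± 0.35 (adjusted p = 0.0372) without control replicate 1. The other core protein, Uqcrc2, averaged 340.4 ± 53.4 normalized counts in Prrx1(R1A)-/- nuclei against 343 ± 140.3 in controls, and Uqcrh, the hinge protein at the cytochrome c site, 126 ± 13.6 in Prrx1(R1A)-/- nuclei against 186 ± 72.4 in controls.

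The promoters of 4 of these genes are shown because the pairs share a direction or split: Cox6a1 and Cox7a2l of complex IV both had negative fold changes, and Uqcrc1 and Uqcrfs1 of complex III had opposite ones, all without overlap of the groups. The windows run from 250 bases before to 50 bases after the RefSeq start in GRCm38.p6. Capitals mark matches, on either strand, to CGCANGCG, the core of the NRF1 motif, the box CCAAT and the estrogen-related receptor motif TCAAGGTCA. They lie at chr5:115348909-115349208 (minus strand, Cox6a1), chr17:83514284-83514583 (minus strand, Cox7a2l), chr9:108936398-108936697 (plus strand, Uqcrc1) and chr13:30545267-30545566 (minus strand, Uqcrfs1).
Cox6a1: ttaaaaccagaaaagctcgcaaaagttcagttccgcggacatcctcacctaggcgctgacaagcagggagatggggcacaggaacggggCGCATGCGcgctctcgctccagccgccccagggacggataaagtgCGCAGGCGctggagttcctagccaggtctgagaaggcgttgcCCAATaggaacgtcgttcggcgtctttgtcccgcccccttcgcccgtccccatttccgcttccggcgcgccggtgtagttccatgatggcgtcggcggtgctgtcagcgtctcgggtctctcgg
Cox7a2l: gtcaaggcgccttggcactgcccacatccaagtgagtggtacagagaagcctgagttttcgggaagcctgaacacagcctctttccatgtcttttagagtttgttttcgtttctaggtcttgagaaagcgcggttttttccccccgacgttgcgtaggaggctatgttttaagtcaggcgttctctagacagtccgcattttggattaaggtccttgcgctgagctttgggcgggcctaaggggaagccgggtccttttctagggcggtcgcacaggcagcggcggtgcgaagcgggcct
Uqcrc1: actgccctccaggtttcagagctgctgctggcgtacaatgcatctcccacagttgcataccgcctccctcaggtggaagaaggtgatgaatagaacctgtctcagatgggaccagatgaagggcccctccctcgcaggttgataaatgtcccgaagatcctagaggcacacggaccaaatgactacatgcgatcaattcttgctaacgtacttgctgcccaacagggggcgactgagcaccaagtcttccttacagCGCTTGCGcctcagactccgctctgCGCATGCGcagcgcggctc
Uqcrfs1: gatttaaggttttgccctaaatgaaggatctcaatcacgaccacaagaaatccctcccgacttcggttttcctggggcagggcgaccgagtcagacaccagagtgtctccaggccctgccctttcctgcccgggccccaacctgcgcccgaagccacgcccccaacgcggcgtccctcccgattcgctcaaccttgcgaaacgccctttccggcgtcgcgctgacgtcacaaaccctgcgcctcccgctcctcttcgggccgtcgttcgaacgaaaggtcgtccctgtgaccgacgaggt
The Cox6a1 window held 2 NRF1 matches and a CCAAT box, and the Uqcrc1 window 2 NRF1 matches downstream of the start. No searched motif was found in the Cox7a2l and Uqcrfs1 windows. The Cox7a2l window lies inside the gene as GENCODE places it, downstream of the start given there. Sequence at that GENCODE start was not searched.

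In complex V the genes of the catalytic core, Atp5b and Atp5a1, had the highest mean normalized counts, which are not corrected for length, and wide control values. Atp5b, the catalytic beta subunit, had 1450.4, 986 and 1288 normalized counts in Prrx1(R1A)-/- libraries, against 842, 1809 and 2314 in controls. The Prrx1(R1A)-/- values lay between control replicate 1 and the other 2 controls, and limma gave a log2 fold change of −0.31 ± 0.33 (adjusted p = 0.739). Without control replicate 1 it was −0.74 ± 0.19 (adjusted p = 0.0342). Atp5a1, the alpha subunit, averaged 1285 ± 126 in Prrx1(R1A)-/- nuclei against 1616 ± 668 in controls, and Atp5c1, the gamma subunit of the rotor, 235 ± 13.9 in Prrx1(R1A)-/- nuclei against 312 ± 144 in controls. Both had the same order of libraries as Atp5b among the controls.

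Of the membrane part of complex V, Atp5f1, subunit b of the stator, had 73.8, 34.8 and 36.4 normalized counts in Prrx1(R1A)-/- libraries, against 54.1, 132 and 139 in controls. Control replicate 1 lay inside the Prrx1(R1A)-/- range. The log2 fold change was −1.12 ± 0.47 (adjusted p = 0.383), and −1.56 ± 0.42 (adjusted p = 0.0360) without that library. Atp5g3, a gene for subunit c of the proton ring, had 194, 136 and 98.0 normalized counts in Prrx1(R1A)-/- libraries, against 103, 303 and 401 in controls, again with control replicate 1 inside the range. Its log2 fold change was −0.76 ± 0.46 (adjusted p = 0.541) and −1.34 ± 0.31 (adjusted p = 0.0191) without it. Atp5sl had 241, 353 and 273 normalized counts in Prrx1(R1A)-/- libraries, against 132, 192 and 228 in controls without overlap, a log2 fold change of 0.67 ± 0.29 (adjusted p = 0.399 by limma).

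The Atp5g3 promoter, chr2:73911277-73911576 on the minus strand, is shown because it held all 3 of the motifs marked above in 1 window, with NRF1 past the start and the receptor motif read on the opposite strand.
Atp5g3: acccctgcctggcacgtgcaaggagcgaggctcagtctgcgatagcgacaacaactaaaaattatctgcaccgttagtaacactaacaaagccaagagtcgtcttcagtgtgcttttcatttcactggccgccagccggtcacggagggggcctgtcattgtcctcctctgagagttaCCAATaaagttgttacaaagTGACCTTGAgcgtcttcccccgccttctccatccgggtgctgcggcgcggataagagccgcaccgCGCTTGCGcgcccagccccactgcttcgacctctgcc

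Complex I, the largest group, showed few differences. Ndufa4 had 82.5, 38.4 and 37.4 normalized counts in Prrx1(R1A)-/- libraries, against 49.1, 160 and 192 in controls. Control replicate 1 again fell within the Prrx1(R1A)-/- values, and limma gave a log2 fold change of −1.21 ± 0.53 (adjusted p = 0.406), against −1.81 ± 0.41 (adjusted p = 0.0183) without that library. Ndufa12, an accessory subunit with 1 near-identical copy, had 32.6, 39.6 and 51.5 normalized counts in Prrx1(R1A)-/- libraries, against 23.9, 21.7 and 17.8 in controls. Its groups did not overlap (log2 fold change 0.92 ± 0.48, adjusted p = 0.467). Ndufa2, another accessory subunit, averaged 113 ± 64.5 in Prrx1(R1A)-/- nuclei against 163 ± 39.8 in controls.

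With all 6 libraries the subunits of complex I that carry its cofactors lay near 0, and without control replicate 1 they lay below 0. Ndufv1, which binds NADH and flavin, averaged 340.4 ± 29.8 normalized counts in Prrx1(R1A)-/- nuclei and 362 ± 139 in controls (SD, n = 3 each), a log2 fold change of −0.02 ± 0.29. Ndufv2, an iron-sulfur protein beside it, had 118, 115 and 101 normalized counts in Prrx1(R1A)-/- libraries, against 45.3, 214 and 202 in controls. For Ndufv2 the Prrx1(R1A)-/- values lay between control replicate 1 and the other controls. Its log2 fold change was −0.17 ± 0.51, and −0.90 without control replicate 1 (adjusted p = 0.0593 by limma). Ndufs1, Ndufs3, Ndufs7 and Ndufs8, which lie along or beside the path of electrons to ubiquinone, had log2 fold changes of 0.01, 0.01, −0.03 and 0.16, with SE of 0.31 to 0.46. Without control replicate 1 these were −0.46, −0.38, −0.10 and −0.24, and that of Ndufv1 was −0.27. Ndufa13, with the highest mean of complex I, averaged 389 ± 40.7 in Prrx1(R1A)-/- nuclei against 383 ± 108 in controls. Ndufa4l2 averaged 72.1 ± 35.0 in Prrx1(R1A)-/- nuclei against 72.8 ± 38.3 in controls. Each of these signs changed in at least 1 alternative.

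In complex II, Sdha, the flavoprotein that oxidizes succinate, had 642, 454 and 390.1 normalized counts in Prrx1(R1A)-/- libraries, against 452, 865 and 829.8 in controls. Control replicate 1 lay within the Prrx1(R1A)-/- range, with a log2 fold change of −0.50 ± 0.30 (adjusted p = 0.523 by limma) and of −0.81 ± 0.22 (adjusted p = 0.0388) without it. Sdhb, the iron-sulfur subunit, had 308, 298 and 282 normalized counts in Prrx1(R1A)-/- libraries, against 199, 243 and 274 in controls. These groups did not overlap but nearly met, with a log2 fold change of 0.32 ± 0.25 (adjusted p = 0.624). Sdhc, a membrane anchor, averaged 238 ± 30.1 in Prrx1(R1A)-/- nuclei against 260.1 ± 138.4 in controls. The other anchor, Sdhd, missed the filter.

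The 10 subunits that missed the filter were Ndufa8, Ndufb4, Ndufs5, Sdhd, Uqcr11, Uqcrb, Cox7a2, Cox7b2, Cox8c and Atp5l. Cox8c, a testis form, was at 0 in every library, where 3 reads, the limit that a count of 0 allows, come to 2.22 to 3.77 normalized counts. Near-identical copies elsewhere in the genome, defined as 95% identity over at least 100 coding bases, were found for 23 subunits. Of these, 5 missed the filter (21.7%), against 5 of the 61 without a copy (8.20%), and the median of their mean normalized counts was 59.7, against 140 for the others. Transcripts of the subunits were short, with a median of 824 bases, against 3003 over all genes tested with a known length.

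The median deviation of the subunits from the mean of 6 libraries (log2) was 0.07, −0.14 and −0.08 in Prrx1(R1A)-/- replicates 1, 2 and 3, against −0.42, 0.14 and 0.54 in control replicates 1, 2 and 3. The 3 Prrx1(R1A)-/- libraries lay between the lowest and the highest control. Control replicate 1 had the lowest value of the 6 libraries for 30 of 74 subunits (40.5%, against 22.6% of all genes), and control replicate 3 the highest for 42 (56.8%, against 14.7%). In each complex control replicate 3 had the highest median deviation. Control replicate 1 had the lowest in complexes I, II, IV and V, and in complex III it lay within 0.01 of the lowest library, Prrx1(R1A)-/- replicate 3.

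**Figure D4:**
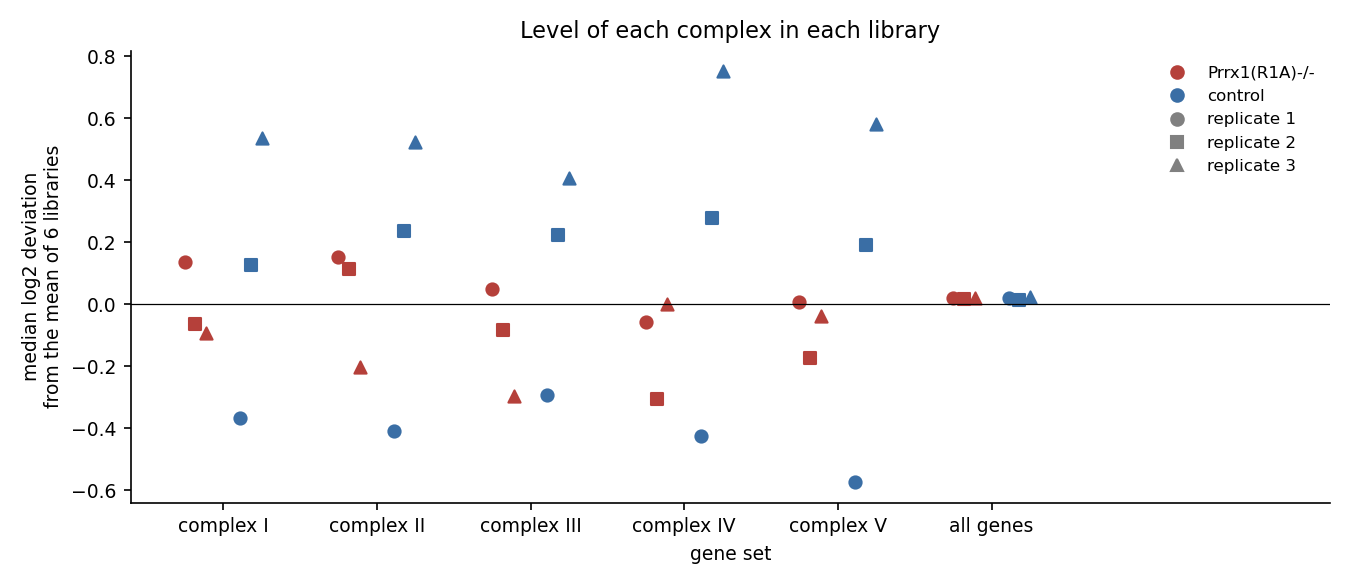
Median log2 deviation of the tested subunits of each complex from their mean over 6 libraries, for each Prrx1(R1A)-/- (red) and control (blue) library, with all tested genes on the right. Control replicate 3 is highest in every complex (0.41 to 0.75), control replicate 1 lies at −0.57 to −0.29, and the Prrx1(R1A)-/- libraries lie at −0.31 to 0.15.

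Control replicate 1 was below the mean of the other controls by a median of −0.73 (log2) over subunits, against 0.0042 over all genes. The mean of the Prrx1(R1A)-/- libraries (log2) lay above control replicate 1 and below both other controls for 35 of 74 subunits (47.3%, against 17.3% of all genes). Genes with the reverse order were not counted in either share. The spread within a group was larger in controls than in Prrx1(R1A)-/- libraries for 49 of 74 subunits (66.2%, against 59.9% of all genes). Sums of adipocyte markers were likewise lowest in control replicate 1, at 373, 535 and 358 normalized counts in Prrx1(R1A)-/- libraries, against 311, 1122 and 922 in controls. Of the 6 markers, Adipoq, Cidec and Ucp1 were at 0 in at least 1 library and Fabp4 held most of the sum. Their part in the result was not tested. Subunit reads made up 0.166%, 0.134% and 0.171% of reads outside ribosomal RNA in the Prrx1(R1A)-/- libraries, against 0.139%, 0.230% and 0.284% in the controls.

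Transcripts of mitochondrial DNA, whose proteins join the nuclear subunits in complexes I, III, IV and V, had a like order of the control libraries. Their 13 protein genes summed to 20185, 12967 and 12726 normalized counts in Prrx1(R1A)-/- libraries, against 13774, 24176 and 25209 in controls. Control replicate 1 was thus the lowest control, as for the nuclear subunits. Unlike there, it lay above Prrx1(R1A)-/- replicates 2 and 3. Of the 13, 6 were listed at 0 in every library, and the 7 tested genes had log2 fold changes below 0 with a median of −0.52, and 0 of 7 were called. Without control replicate 1 the median was −0.64, and 3 of 7 (ND4, ND5 and COX1) were called lower, beside the 3.06% of all genes. ND5, a proton-pumping subunit of complex I, averaged 2757 ± 811 in Prrx1(R1A)-/- nuclei against 4123 ± 854 in controls (log2 fold change −0.60 ± 0.25, adjusted p = 0.388 by limma). Its fold change was −0.78 (adjusted p = 0.0338) without control replicate 1 and −0.74 (adjusted p = 0.0249) with library weights. ND6, of the same membrane arm, averaged 399 ± 144 in Prrx1(R1A)-/- nuclei against 599 ± 104 in controls (log2 fold change −0.63 ± 0.28, adjusted p = 0.409). The sorted material is nuclear, so these reads measure what mitochondrial RNA came with the nuclei. Whether it bears on the nuclear subunits was not tested.

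Assembly factors, which build the complexes without staying in them, had a median log2 fold change of −0.09 over 50 tested genes, 22 above and 28 below 0, with 0 called. The median was −0.35 without control replicate 1, where 2 were called lower, beside 3.06% of all genes. It was 0.05 and 0.08 without control replicates 2 and 3, so its sign hung on single controls. At an unadjusted p under 0.05, 0 had a positive and 5 a negative fold change, beside 6.67% and 5.25% of all genes. Of the 5, named after their values were seen, 4 serve complex IV (Surf1, Cox16, Cox17 and Coa3) and 1 complex III (Uqcc3). Surf1, a factor for the assembly of complex IV whose human gene is mutated in Leigh syndrome, had 70.6, 48.0 and 62.7 normalized counts in Prrx1(R1A)-/- libraries, against 142, 138 and 163 in controls. Its groups were well apart (log2 fold change −1.29 ± 0.32, adjusted p = 0.181 by limma, and 0.0192 by DESeq2). Cox16 had 126, 154 and 176 normalized counts in Prrx1(R1A)-/- libraries, against 223, 346 and 272 in controls, likewise without overlap (log2 fold change −0.87 ± 0.28, adjusted p = 0.288 by limma). Surf1 and Cox16 passed an adjusted p under 0.05 without control replicate 1 (0.0342 and 0.0300) and with library weights (0.0109 and 0.0208). Control replicate 1 had the lowest weight, so these settings are not independent.

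Neighbouring pathways had medians above 0 with all 6 libraries, and below 0 without control replicate 1. Enzymes of the citric acid cycle and pyruvate dehydrogenase had a median log2 fold change of 0.17 over 18 genes, with 14 above 0. With all 6 libraries 0 of them were called. Without control replicate 1 their median was −0.21 and 1 of the 18 was called lower, beside 3.06% of all genes. Idh3g, a subunit of isocitrate dehydrogenase, averaged 584 ± 29.0 normalized counts in Prrx1(R1A)-/- nuclei against 433 ± 123 in controls. Genes of ubiquinone synthesis had a median of 0.17 over 13 genes, 8 above 0, with 0 called, and of −0.08 without control replicate 1. Coq8a, a kinase-like protein of that pathway, had 397, 169 and 361 normalized counts in Prrx1(R1A)-/- libraries and 189, 179.8 and 231 in controls, and Coq10b, a ubiquinone-binding protein, averaged 80.7 ± 15.7 in Prrx1(R1A)-/- nuclei against 111 ± 34.7 in controls. Subunits whose names fall outside the rule had a median of −0.37 over 4 tested genes, all below 0, among them Atpif1, the inhibitor of complex V, at 132 ± 17.5 in Prrx1(R1A)-/- nuclei against 190 ± 18.4 in controls, and 2010107E04Rik at 58.5 ± 21.8 in Prrx1(R1A)-/- nuclei against 108 ± 29.3 in controls.

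Factors known to control respiratory chain genes had a median log2 fold change of 0.61 over 12 genes, 8 above 0, with 0 called. Without control replicate 1 the median was 0.30 and 1 of the 12, Ppargc1b, was called higher, beside 6.1% of all genes. Ppargc1b, a coactivator of mitochondrial genes, had 558, 566 and 357 normalized counts in Prrx1(R1A)-/- libraries, against 203, 195 and 220.2 in controls. Each Prrx1(R1A)-/- value exceeded each control value. The log2 fold change of 1.23 ± 0.26 did not pass by limma (adjusted p = 0.128), and passed with DESeq2 (adjusted p = 0.00259) and without control replicate 1 (adjusted p = 0.0114). Pprc1, a related coactivator, averaged 1285 ± 265 in Prrx1(R1A)-/- nuclei against 762 ± 149.7 in controls (log2 fold change 0.75 ± 0.24, adjusted p = 0.284 by limma).

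Promoter windows in RefSeq were matched for 69 of the 84 subunits (75 windows, since some genes have several starts). The NRF1 core CGCANGCG, of the motif bound by nuclear respiratory factor 1, was found in 30 of the 75 windows (40.0%), against 8.21% of all 32851 windows of the same length. The YY1 motif AAGATGGC was in 12 (16.0%, against 2.75%), the estrogen-related receptor motif in 2 (2.67%, against 0.423%), the ETS motif CCGGAAGT in 5 (6.67%, against 3.89%), CCAAT in 32 (42.7%, against 37.4%) and TATAAA in 8 (10.7%, against 13.6%), on either strand. The 20 tested subunits with an NRF1 match had a median log2 fold change of −0.21 and the 41 without one −0.16. A match is a run of letters and not a shown binding site.

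The authors' deposited table of 1900 genes, each listed with a p under 0.05, held 12 of the subunits, 5 higher and 7 lower in Prrx1(R1A)-/-. That is 12 of the 84 subunits, beside 1900 genes listed where 26332 genes had values. Of the 12 subunits in the authors' deposited table, only Cox6a2 had an adjusted p under 0.05 (0.0225, for a log2 fold change of 1.03). An adjusted p under 0.05 was listed there for 227 of the 1900 genes. In that deposited table of the authors, Cox7a2l stood at −1.04 on the log2 scale (adjusted p = 0.0722). All 12 had the same sign in the authors' deposited table as in the limma fit. Both rest on the same 6 libraries, so this is no independent check. The Wald score deposited there has the opposite sign to the log2 fold change, and the direction was read from the deposited counts.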

How the data were processed

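Nuclear RNA was measured in 3 Prrx1(R1A)-/- and 3 control libraries, 1 per mouse. Per the labels, the ReliaPrep kit served for extraction, NuGen's Ovation system (version V2) for amplification and a HiSeq4000 for sequencing. The submitters' processing notes name STAR, DESeq2 and build mm10; versions, read counter and annotation are not stated there. The deposited values are normalized counts, a signal per gene and library; dividing by each library's step gave whole reads within 0.01 for all values but 1, the value of Prrx1 in control replicate 3. Per the file headers, the authors' deposited comparison table bears the name of DESeq2 and gives per gene a mean signal, a log2 fold change, its standard error, the Wald score, a p-value and the −log10 of its adjusted p. Of 27179 entries, 847 held no value.

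Groups were compared by limma-trend (limma 3.58.1, R 4.3.3) on log2 of the deposited normalized count plus 1, two-sided, with genotype as the single term and Benjamini-Hochberg adjustment over all 14584 genes reaching 10 in 3 libraries. This scale understates changes of low genes. Fold changes carry the SE of the fit, counts the SD of 3 libraries. Isoform ratios were tested by exact permutation. edgeR 4.0.16 and DESeq2 1.42.0 were run on recovered reads; other alternatives were pseudocounts of 0.5 and 5, no filter or a minimum of 50, TMM, median and quantile scaling, library weights, a replicate block, a ribosomal RNA covariate (Rn45s), removal of a length trend, and leaving out each library. The fit was tested on simulated data. Limits on counts cover counting error only, since amplified reads are not independent molecules.

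Positions, transcript lengths and overlaps are from GENCODE vM21 (GRCm38), near-identical copies from BLAST 2.17.0 of coding sequences, and promoters from RefSeq (GRCm38.p6). The NRF1 core was chosen after a longer form had been searched. Opposite-strand exons overlap 26 subunits. Plots used matplotlib 3.10.9 (Python 3.11.15). Named are, per complex, the 3 subunits with the smallest p and the one with the highest mean, isoform pairs, catalytic and cofactor-binding subunits, the 2 highest and 2 lowest fold changes among means of at least 100, and 2 genes per related list; genes named beside this rule are marked, and some genes the rule takes in are not reported here. The subunits, lists and tests were chosen with earlier results of these data known.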

Additional observations from a re-analysis of the deposited data

How the results depend on the processing

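The direction of the subunits depended on the control libraries. Of 36 named tested subunits, 20 kept their direction in all 19 alternatives; of 681 values, 65 had the opposite sign and 22 passed the test where the fit on all libraries did not. The number of genes called, 2, was 0 with quantile scaling, edgeR and the replicate block. It was 244 with DESeq2, 1521 with library weights and 436 with the Rn45s covariate. Without control replicate 1 it was 1312, and it was 0 on leaving out any other single library. Subunits called higher numbered 1 with DESeq2, 2 with library weights, 2 with the Rn45s covariate and 1 without control replicate 1. Cox6a2 was among those called higher in each of these cases. Subunits called lower numbered 10 with library weights and 7 without control replicate 1. On leaving out any other single library 0 subunits were called in either direction. The median over subunits was −0.39 with library weights, 0.04 with the Rn45s covariate and −0.05 with the length trend removed. The median of complex II was −0.44 with library weights, 0.44 with the Rn45s covariate and −0.47 to 0.41 on leaving out a library. The 5 isoform differences kept their sign in every setting run. That of Ndufa4l2 over Ndufa4 was 2.20, 0.79 and 0.61 without control replicates 1, 2 and 3, and 1.90 and 0.65 without Prrx1(R1A)-/- replicates 1 and 3. That of Cox8b over Cox8a was 0.52 to 1.16 on leaving out a library, the highest without control replicate 3. The cause of these changes was not tested. The replicate numbers did not pair the libraries (correlations of same-numbered deviations −0.11, −0.02 and −0.09); with the replicate number as a block 0 genes and 0 subunits were called.

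Fold changes that changed sign were as follows. With edgeR they were −0.14 for Sdhc, −0.023 for Uqcrc2, −0.077 for Ndufs3, 0.038 for Ndufs7, −0.13 for Ndufs1 and 0.0084 for Ndufa4l2. With DESeq2 they were −0.13 for Sdhc, −0.015 for Uqcrc2, −0.073 for Ndufs3, 0.042 for Ndufs7, −0.13 for Ndufs1 and 0.00091 for Ndufa4l2. Library weights gave −0.44 for Sdhc, −0.076 for Ndufa13, −0.22 for Uqcrc2, −0.31 for Ndufs3, −0.19 for Cox7a1, −0.19 for Ndufs8, −0.46 for Ndufs1 and 0.28 for Ndufa4l2. The Rn45s covariate gave 0.57 for Ndufv2, 0.13 for Atp5c1, 0.082 for Atp5b, 0.037 for Atp5a1, 0.50 for Cox5b, 0.061 for Ndufs7 and 0.18 for Ndufv1. Median scaling gave 0.012 for Ndufs7, 0.017 for Ndufv1 and 0.029 for Ndufa4l2, quantile scaling −0.045 for Ndufs1 and 0.068 for Ndufa4l2, and removal of the length trend 0.11 for Ndufs7, 0.045 for Ndufv1 and 0.14 for Ndufa4l2. A pseudocount of 5 gave −9.5e-05 for Ndufs3.

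On leaving out each library, fold changes ran over 0 for Ndufv2 (−0.90 to 0.21), Sdhc (−0.47 to 0.41), Ndufa13 (−0.14 to 0.26), Uqcrc2 (−0.33 to 0.29), Ndufs3 (−0.38 to 0.28), Atp5c1 (−0.73 to 0.015), Atp5a1 (−0.58 to 0.051), Cox7a1 (−0.089 to 0.62), Cox4i1 (−0.56 to 0.0037), Cox5b (−0.82 to 0.20), Ndufs7 (−0.33 to 0.23), Ndufv1 (−0.27 to 0.27), Ndufs8 (−0.24 to 0.44), Ndufs1 (−0.46 to 0.35) and Ndufa4l2 (−0.37 to 0.39).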

Other observations

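The remaining genes of the regulator list with an unadjusted p under 0.05, chosen after their values were seen, did not share a direction. Esrrg, a nuclear receptor of oxidative muscle, had 280.1, 268 and 156 normalized counts in Prrx1(R1A)-/- libraries, against 45.3, 140.1 and 119 in controls, without overlap (log2 fold change 1.31 ± 0.43, adjusted p = 0.295 by limma). It passed with the Rn45s covariate (1.89, adjusted p = 0.0036) and with library weights (0.99, adjusted p = 0.0474). Ppara, a nuclear receptor for fatty acids, averaged 494 ± 113 in Prrx1(R1A)-/- nuclei against 275 ± 131 in controls, with overlapping values (log2 fold change 0.92 ± 0.34, adjusted p = 0.339), and passed with the Rn45s covariate (1.21, adjusted p = 0.0451). Tfam, which packages and transcribes mitochondrial DNA, had 53.2, 36.0 and 21.2 normalized counts in Prrx1(R1A)-/- libraries, against 122, 104 and 44.5 in controls (log2 fold change −1.24 ± 0.50, adjusted p = 0.371). The lowest control value of Tfam lay within the Prrx1(R1A)-/- range. Ppargc1a, a coactivator of mitochondrial genes whose unadjusted p was 0.158, had 2754, 2021 and 1433 normalized counts in Prrx1(R1A)-/- libraries, against 258, 1777 and 2341 in controls, and control replicate 1 was the library far below the rest.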
